A study of Mus musculus with 8 samples.

Results

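The Dlg, Shank and Homer genes encode the main scaffold proteins of the excitatory postsynaptic density, and 10 of them were examined among 21896 annotated protein-coding genes. Members were taken by name: Dlg1, Dlg2, Dlg3, Dlg4, Shank1, Shank2, Shank3, Homer1, Homer2 and Homer3. Every deposited SMC1 peak inside a member or within 50 kb of either end of its gene body was assigned to it. This gave 23 of the 12359 peaks of the resting list and 2 of the 1684 peaks of the NMDA list. Because the 50 kb limit is a fixed distance, a peak assigned to a member can also lie at a neighbouring gene, and such neighbours are named beside the peak.

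The data are SMC1 chromatin immunoprecipitation sequencing (ChIP-seq) of wild-type primary cortical neurons of Swiss-Webster mice, prepared at embryonic day 16 and studied at day 13 in vitro. Resting cultures, whose treatment label reads none, were compared with cultures bathed in 50 µM NMDA for 10 min and left in drug-free medium for 50 min. Bath-applied NMDA activates NMDA-type glutamate receptors directly. Each condition had 2 ChIP and 2 input samples, with about 15000000 cells per ChIP replicate, and 1 deposited peak list covering both ChIP replicates. The growth protocol also describes etoposide, which no treatment label names. All groups carried the wild-type genotype, and the labels do not say whether replicates came from separate litters.

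SMC1 is a core subunit of cohesin, which draws out loops of chromatin and often stops at sites bound by CTCF, an insulator protein. Dlg proteins are membrane-associated guanylate kinases that hold glutamate receptors at the synapse. Shank proteins form a deeper layer of the scaffold, and Homer proteins tie Shank to metabotropic glutamate receptors and to calcium stores. Homer1 also has a short, activity-induced form that loosens this scaffold.

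Peak strength below is the −log10 p of the authors' peak caller, summed over both replicates, and the value of each replicate follows it as the first and second replicate column. The columns carry no replicate number. Strength grows with library depth, and depth is unknown from these files, so strengths are ranked within a list only and no change in binding can be read from them. A percentile is the share of peaks in the same list at or below a peak. Every listed peak had passed an irreproducible discovery rate (IDR) of 0.05. Since strengths cannot be compared between the lists, and a site missing from a list has no value there, no test between conditions was made and the values are descriptive. The resting list had a median strength of 30.2 and a median width of 644 bp, and the NMDA list 23.0 and 1033 bp. A peak list measures no expression, so the labelled cell type could not be checked. Resting peaks lay within 50 kb of 9 of 11 neuronal and 10 of 12 glial and microglial marker genes, and NMDA peaks within 50 kb of 0 of 11 and 5 of 12. The shares over all protein-coding genes were 62.3% and 16.9%. Marker genes lying close together can share a peak, so the marker counts need not be of separate sites.

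Scaffold genes had resting SMC1 peaks more often than NMDA peaks, as did protein-coding genes as a whole. The resting list was the longer, at 12359 against 1684 peaks. A resting peak lay inside or within 50 kb of 9 of the 10 genes, Dlg3 being the exception, against 62.3% of all protein-coding genes. It overlapped the gene body in 6 of 10 (Dlg2, Shank1, Shank2, Shank3, Homer1 and Homer3), against 25.4%. An NMDA peak lay inside or within 50 kb of 2 of 10 (Shank1 and Homer1), against 16.9%, a share close to the background. It overlapped the gene body of 1, Homer1, against 6.56%. Both NMDA peaks overlapped a resting peak, as did 75.8% of the whole NMDA list, so 2 of 10 genes had a shared site within 50 kb, against 12.1% of all protein-coding genes. Across the 9 genes with a resting peak the strongest one had a median strength of 37.1, beside 35.9 over the 13649 protein-coding genes with such a peak.

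**Figure D1:**
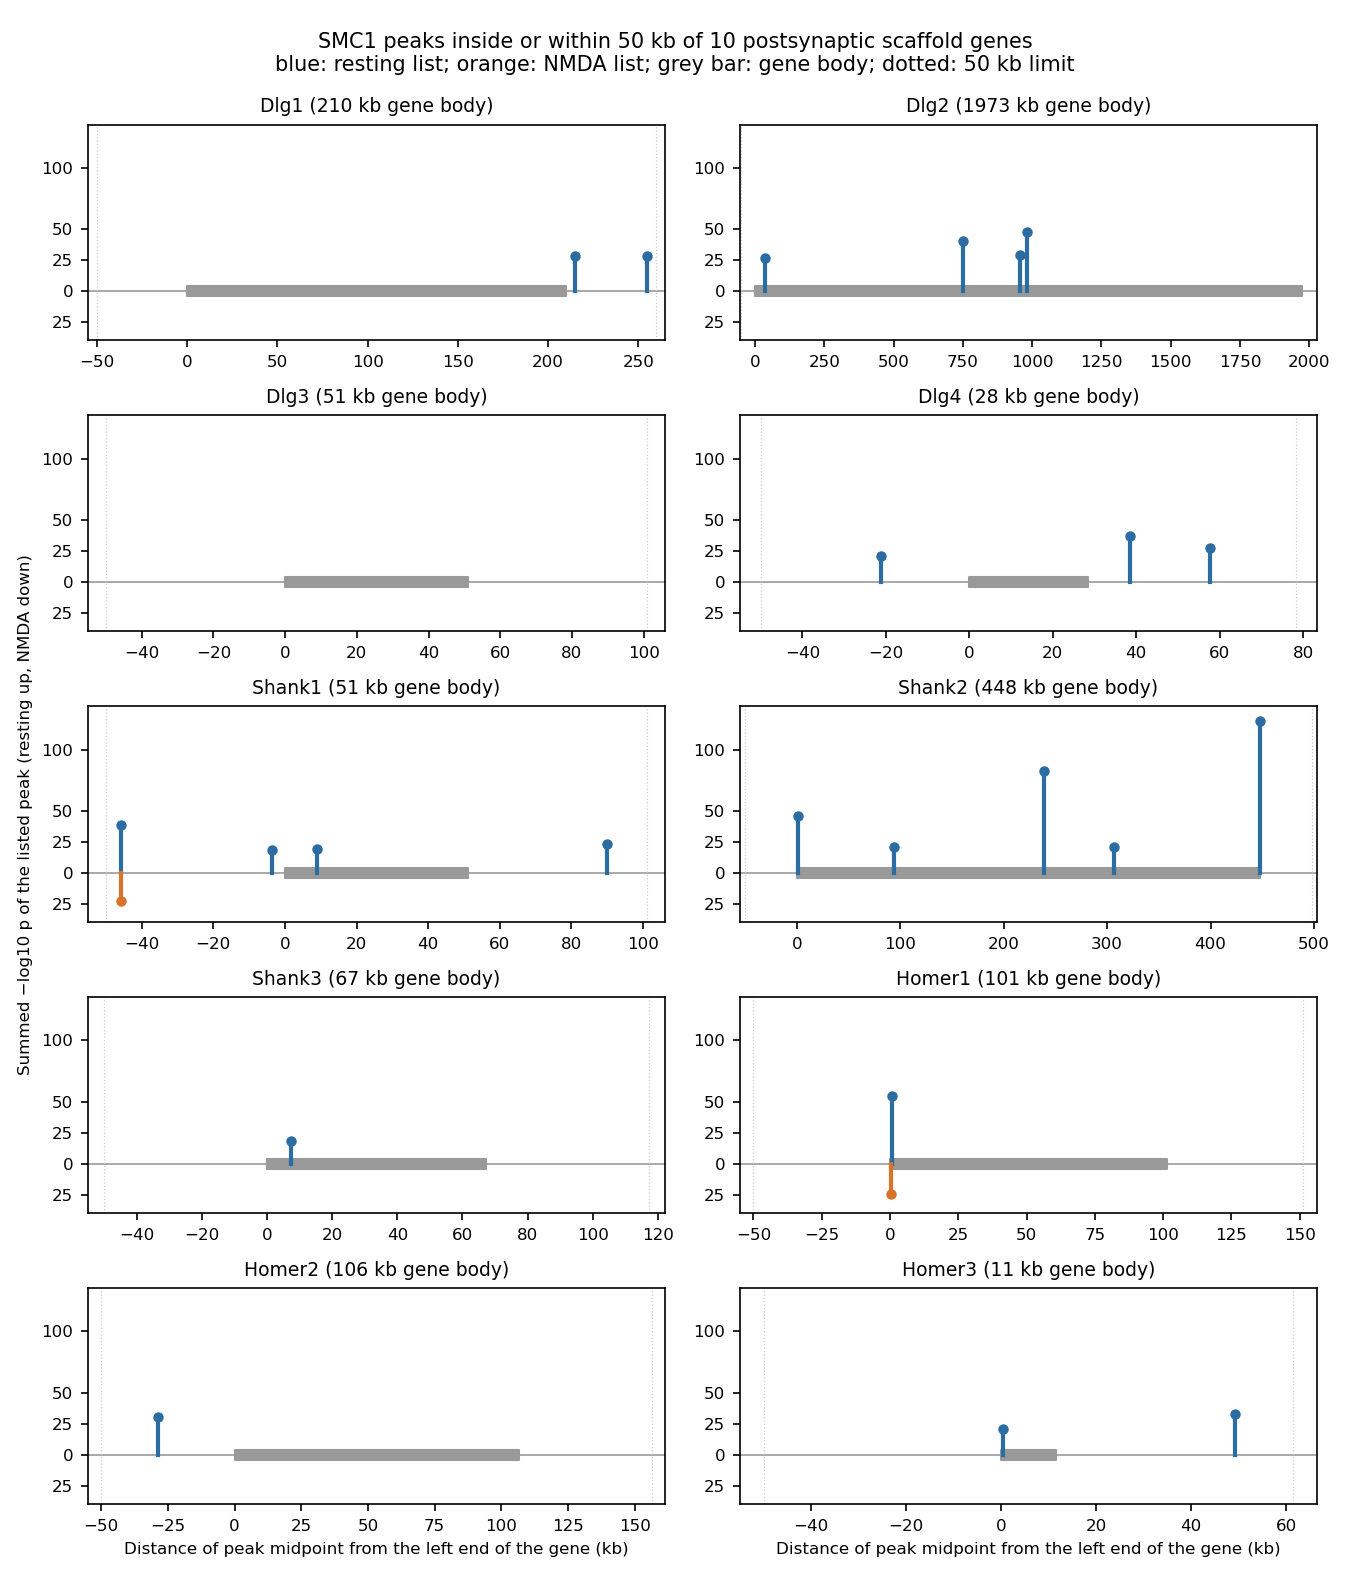
Position and strength of each listed SMC1 peak around the 10 scaffold genes. The x axis gives the distance of the peak midpoint from the left end of the gene body in kb, and stems give the summed −log10 p, upward for the resting list and downward for the NMDA list. Shank2 holds the tallest resting peak (123) at its right end, Dlg3 has none, and the 2 NMDA peaks sit at the Homer1 start and 45.3 kb left of Shank1.

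The scaffold genes are long, with a median gene body of 84.3 kb against 17.1 kb for all protein-coding genes, and long genes meet peaks more often. Among the 3484 protein-coding genes of 50 to 150 kb, 74.7% had a resting peak within 50 kb and 47.0% had one overlapping the gene. The 5 members of that length class (Dlg3, Shank1, Shank3, Homer1 and Homer2) had 4 and 3. Among the 351 genes over 400 kb the shares were 86.0% and 82.3%, and both members of that class, Dlg2 and Shank2, had a peak inside. Dlg1, at 210 kb, had no peak in its body, where 73.1% of the 1109 genes of 150 to 400 kb had one. Under 50 kb the resting shares were 57.9% and 16.7%, and the 2 members, Dlg4 and Homer3, had 2 and 1. For NMDA peaks within 50 kb the share rose from 15.3% in genes under 50 kb to 25.4% in genes over 400 kb. It was 21.0% in genes of 50 to 150 kb, where 2 of the 5 members had one, Shank1 and Homer1. The members of the other classes, Dlg2 and Shank2 among them, had none.

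**Figure D2:**
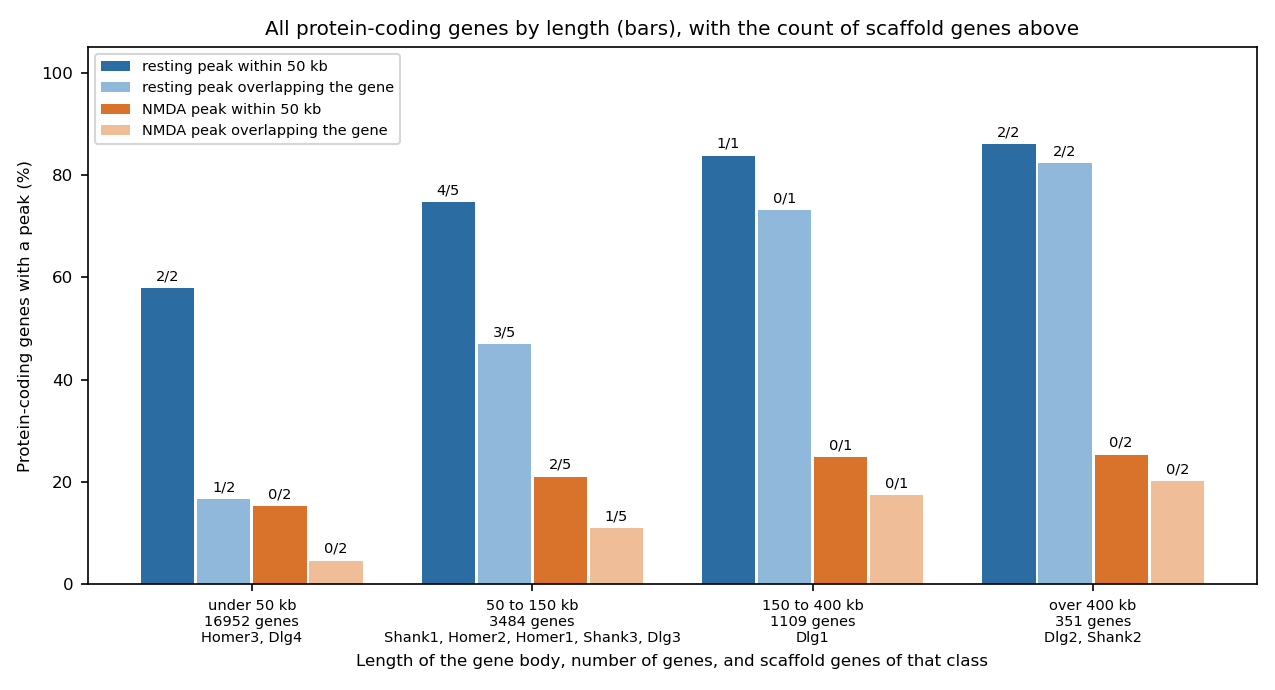
Share of all protein-coding genes with a peak, in percent, by length class of the gene body. Blue bars are resting peaks and orange bars NMDA peaks, and the fraction above each bar counts the scaffold genes of that class with such a peak. The bars rise with gene length. With 1 to 5 members per class, the members' counts are too few to show such a trend. Dlg1 has no peak in its body.

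Of the 23 resting peaks 13 overlapped the member itself and 10 lay outside it, and each of these 10 was nearer to another annotated gene. Their median strength was 28.5, at a median percentile of 45.1, and 10 of 23 lay above the list median. Only 2 of 23, both at Shank2, were in the strongest 10% of the list, and 7 were below the twentieth percentile. The first replicate column was higher in 11 peaks and the second in 12. The larger of the 2 values exceeded the smaller by a median of 1.23-fold and at most 2.52-fold, beside a median of 1.40-fold over the whole resting list. The summits of the replicates lay a median of 68 bp apart, from 12 to 957 bp, beside 46 bp in the whole list. An NMDA peak overlapped 2 of 23 (8.70%, exact Clopper-Pearson 95% interval 1.07 to 28.0%), a share near the 10.7% of all resting peaks. The interval covers counting error only.

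**Figure D3:**
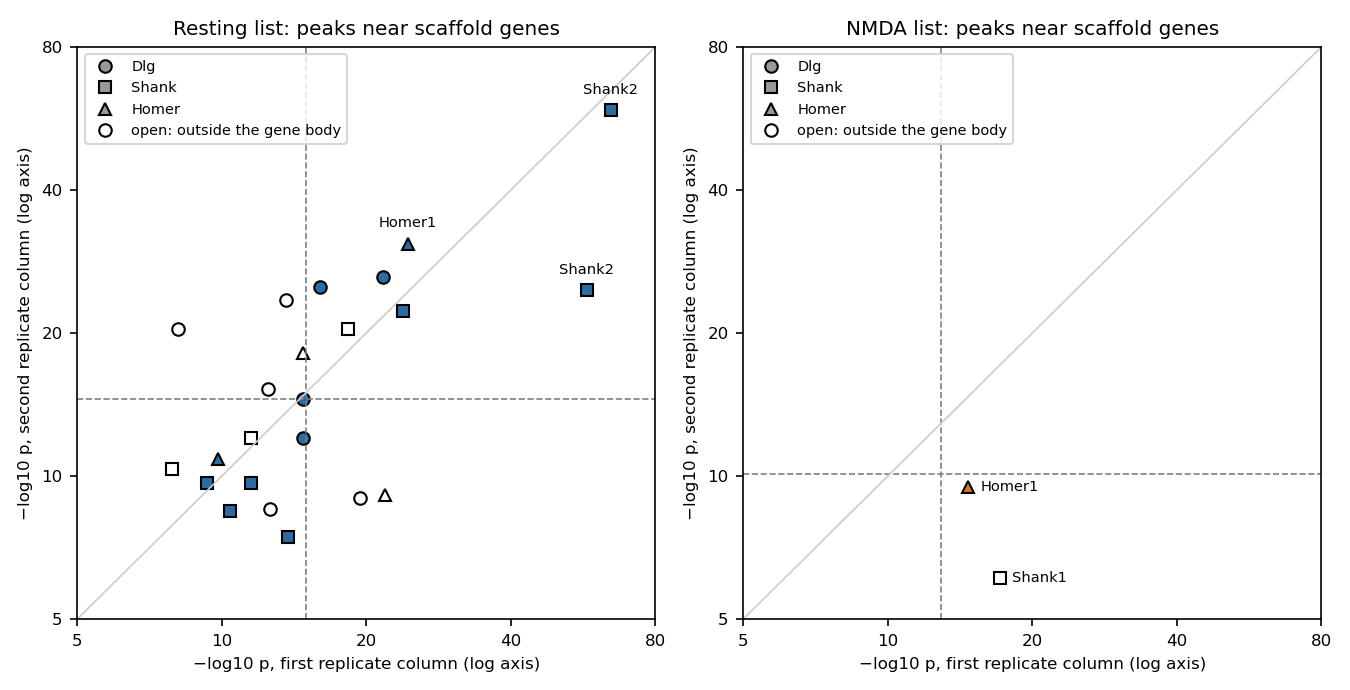
The −log10 p of each peak near a scaffold gene in the first (x) and second (y) replicate column, both on log axes, for the resting list (left) and the NMDA list (right). Dashed lines are the list medians, filled symbols overlap the gene body and open ones lie outside it. The 2 Shank2 peaks above 80 in summed strength stand apart from the other resting peaks, and both NMDA peaks lie below the diagonal.

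The Dlg genes had 9 resting peaks and no NMDA peak. Dlg2 (chromosome 7, 90476188 to 92449246) encodes the scaffold also known as chapsyn and was the longest member, at 1973 kb. Its 4 peaks lay inside it, and Dlg2 was the only gene annotated at each. The strongest, at 91457149 to 91457789, had a strength of 47.96 (21.7 and 26.2), at the 81.8th percentile. The next, at 91226217 to 91226817, had 40.97 (16.02 and 24.9), and the peaks at 91431636 and 90512359 had 29.3 (14.7 and 14.5) and 26.8 (14.7 and 12.04). In the 2 stronger peaks both replicate values were above the list medians of 15.0 and 14.5. Of the 4 peaks, 3 fell between 750 and 981 kb from the left end of the gene. With so few peaks the spacing was not tested. No peak of either list lay in the last 991 kb, which is 50.2% of the gene, nor in a stretch of 713 kb before the second peak. With 4 peaks, or 2.03 per Mb, Dlg2 was near the median of 2.48 per Mb for genes over 400 kb, where 137 of 351 had as low a density or lower. No peak lay near a start site listed for Dlg2: the closest was 135431 bp away.

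Dlg4 (chromosome 11, 70017203 to 70045535) encodes PSD-95, the most abundant scaffold of the postsynaptic density. It had no peak inside its 28.3 kb body. Its 3 resting peaks lay at neighbours. One, at 69995718 to 69996276, covered the start of Phf23, which encodes a zinc finger protein, with a strength of 21.2 (12.6 and 8.54). A second, inside the asialoglycoprotein receptor gene Asgr1 and 10.1 kb from Dlg4, had 37.1 (13.6 and 23.4). The third, 29.2 kb away and nearest to the noncoding gene Gm32946, had 27.8 (12.5 and 15.3). The nearest NMDA peak was 94.9 kb from Dlg4.

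Dlg1 (chromosome 16, 31663443 to 31873356) encodes a scaffold that also acts in receptor trafficking and cell polarity. Its 2 resting peaks were both outside it. The first, at 31878280 to 31878873, lay 4924 bp beyond its right end and covered the start of Meltf, the melanotransferrin gene. It had a strength of 28.4 (19.4 and 9.01). The second, 44.8 kb away and nearest to Gm34476, had 28.5 (8.10 and 20.4). These 2 peaks were close in summed strength, but the larger value came from opposite replicate columns, and they showed the least even replicate values among the Dlg peaks.

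Dlg3 (chromosome X, 100767411 to 100818410) encodes the scaffold prominent at immature synapses and was the 1 member with no peak in either list. The nearest resting peak was 467 kb away and the nearest NMDA peak 1252 kb away. Peaks were sparse on the whole chromosome. Of the 966 protein-coding genes of chromosome X, 15.7% had a resting peak within 50 kb, against 65.3% of the 20661 on the autosomes. Among genes of 50 to 150 kb, the class of Dlg3, the shares were 23.5% and 77.0%. The sex of the embryos was not given in the sources used here, and what the low share on chromosome X comes from was not tested.

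The Shank genes had 10 resting peaks and 1 NMDA peak, with the strongest and some of the weakest sites of the 23. Shank2 (chromosome 7, 143978077 to 144426043) held the strongest. At 144425868 to 144426338 a peak of 471 bp spanned the right end of the gene with a strength of 123 (64.5 and 58.9), the 61st strongest of 12359. The replicate summits there were 14 bp apart and the IDR was 1e-05, the lowest the list gives. The peak also overlapped the noncoding gene Gm34561 and lay 9.386 kb from Cttn, the gene of cortactin, an actin-binding partner of Shank proteins.

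A further Shank2 peak inside the gene, at 144217065 to 144217753, had 82.2 (57.6 and 24.6), at the 96.6th percentile. Both columns put it above the list medians of 15.0 and 14.5, the first far more than the second. The left end of the gene held a peak of 1190 bp at 143978308 to 143979497 with 46.1 (23.8 and 22.3). The other 2 Shank2 peaks were weak, with 21.2 (11.5 and 9.67) and 21.2 (13.8 and 7.44), at the 15.9th and 16.3rd percentiles. With 4 peak midpoints inside 448 kb, or 8.93 per Mb, Shank2 exceeded or equalled 329 of the 351 genes over 400 kb. No NMDA peak was listed at any of these 5 sites, and the nearest was 148 kb from the gene.

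Shank1 (chromosome 7, 44308916 to 44360094) had 4 resting peaks and 1 NMDA peak. Only 1 lay inside the gene, at 44317765 to 44318246, and it was weak, with 18.98 (9.30 and 9.67) at the 6.63rd percentile. A second weak peak, 3251 bp from the left end and inside the lectin growth factor gene Clec11a, had 18.2 (7.89 and 10.3). The third lay inside the synaptotagmin gene Syt3 and had 23.5 (11.5 and 12.04). The site in both lists was the farthest, 45.3 kb to the left and nearest to the predicted gene Gm15517. There the resting peak, at 44262593 to 44263620, had 38.7 (18.3 and 20.4), at the 68.9th percentile of its list. The NMDA peak, at 44262837 to 44263594, had 23.2 (17.1 and 6.09), at the 51.5th percentile of its own. The resting interval covered the whole NMDA interval of 758 bp. Its NMDA columns differed 2.81-fold, while the resting columns were nearly even.

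Shank3 (chromosome 15, 89493013 to 89560261), whose loss or mutation is linked to autism, had 1 resting peak and no NMDA peak. The peak, at 89500078 to 89500734, began 470 bp past the start site listed for the gene. Its midpoint was 7.39 kb from the left end of the gene body, so that start lies inside the body. Its strength was 18.8 (10.4 and 8.46), at the 5.53rd percentile, and its IDR of 0.0363 was close to the limit. The nearest NMDA peak was 1118 kb away.

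The Homer genes had 4 resting peaks and 1 NMDA peak, and the 2 resting peaks that covered a listed start of their own gene belonged to Homer1 and Homer3. RefSeq (GRCm38.p6) start sites were matched for 8 of the 10 members (not Shank1 and Shank2), 18 windows in all, each from 250 bases before to 50 bases after the start. A resting peak overlapped such a window in 2 of 8 members, against 12.7% of 17491 protein-coding genes with a listed window. An NMDA peak did so in 1 of 8, against 5.00%. The bases before the start of Homer1 (chr13:93303507-93303756, plus strand) are covered whole by the resting peak and in part by the NMDA peak, whose interval begins 215 bases before the start. They are shown with those of Homer2 (chr7:81706926-81707175, minus strand), which no peak covers. Capitals mark TGACG, the core of the cAMP response element (CRE), searched on both strands and not found in the Homer2 stretch. A stretch of 30 bases just before the Homer3 start (chr8:70282958-70282987, plus strand) is shown for its match to AGGGGGCGC, a core of the CTCF motif, in capitals.

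Homer1: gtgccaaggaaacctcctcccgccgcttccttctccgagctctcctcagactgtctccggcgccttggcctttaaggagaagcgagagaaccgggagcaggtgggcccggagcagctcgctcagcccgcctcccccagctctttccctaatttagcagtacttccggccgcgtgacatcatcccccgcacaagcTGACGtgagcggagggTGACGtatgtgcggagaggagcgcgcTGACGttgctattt
Homer2: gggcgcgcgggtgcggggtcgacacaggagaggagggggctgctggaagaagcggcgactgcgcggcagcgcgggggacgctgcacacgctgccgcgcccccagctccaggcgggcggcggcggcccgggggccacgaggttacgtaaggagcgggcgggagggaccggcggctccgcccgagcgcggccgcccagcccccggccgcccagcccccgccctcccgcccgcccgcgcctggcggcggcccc
Homer3: gctggccagcAGGGGGCGCtgggcagaggc

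The Homer1 window held 3 copies of TGACG on the plus strand, beginning 56, 40 and 14 bases before the start. At least 1 copy was found in 20.8% of the 32851 windows of all genes and 3 or more in 1.03%. Among windows that a resting peak overlaps, 2.00% held 3 or more, and among those with an NMDA peak 1.90%. Among the 18 member windows 3 held a copy (Homer1, Dlg3 and Dlg4), and Homer1 alone held 3. AGGGGGCGC was found in 1 of the 18, that of Homer3, and in 1.25% of all windows. TGANTCA, the AP-1 motif, was in none of the 18 and in 7.81% of all windows. A match describes these letters and does not show a bound factor.

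Homer1 (chromosome 13, 93303757 to 93405129) had the stronger of these 2, over the first of its 2 listed starts. The resting peak, at 93302751 to 93306046, had a strength of 55.3 (24.4 and 30.8), at the 87.7th percentile, with an IDR of 0.000132. It was 3296 bp wide, from 1006 bp before the start to 2289 bp after it, and 16 of the 12359 resting peaks (0.129%) were at least as wide. That width is the interval of the first replicate column, and the interval of the second was 2060 bp. The NMDA peak, at 93303542 to 93304929, had 24.2 (14.7 and 9.49), at the 57.8th percentile of its list, with an IDR of 0.0158. It was 1388 bp wide, lay wholly within the resting peak, and 24.0% of NMDA peaks were at least as wide. The replicate summits lay 589 and 458 bp before the start at rest. After NMDA they lay 97 bp before and 112 bp after it. The ranges of the replicate summits also did not overlap between the lists at the Shank1 site, nor in 42.3% of the 1328 overlapping pairs of resting and NMDA peaks of the whole lists, so this was common. The 3 TGACG copies were inside both peaks.

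Homer3 (chromosome 8, 70282880 to 70294361) had a weak resting peak over its start and no NMDA peak. The peak, at 70282835 to 70283770, had 20.7 (9.81 and 10.8), at the 13.8th percentile. It reached from 164 bp before the listed start to 771 bp after it. The AGGGGGCGC match was inside the peak, 120 and 33 bp from the replicate summits. A second resting peak, 37.4 kb to the right and inside Upf1, the gene of an RNA helicase of nonsense-mediated decay, had 32.9 (14.7 and 18.2). The nearest NMDA peak was 116 kb away.

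Homer2 (chromosome 7, 81600481 to 81706925) had no peak in its body or at its start. Its 1 resting peak, at 81570770 to 81572335 and 28.1 kb to the left, covered the start of Whamm, a gene of actin assembly. It had a strength of 31.0 (21.9 and 9.12), and the summits of the replicates were 957 bp apart, the widest gap of the 23. The nearest NMDA peak was 1159 kb away. The 3 Homer genes thus differed at their starts: Homer1 had a peak in both lists, Homer3 a weak one at rest, and Homer2 none.

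**Figure D4:**
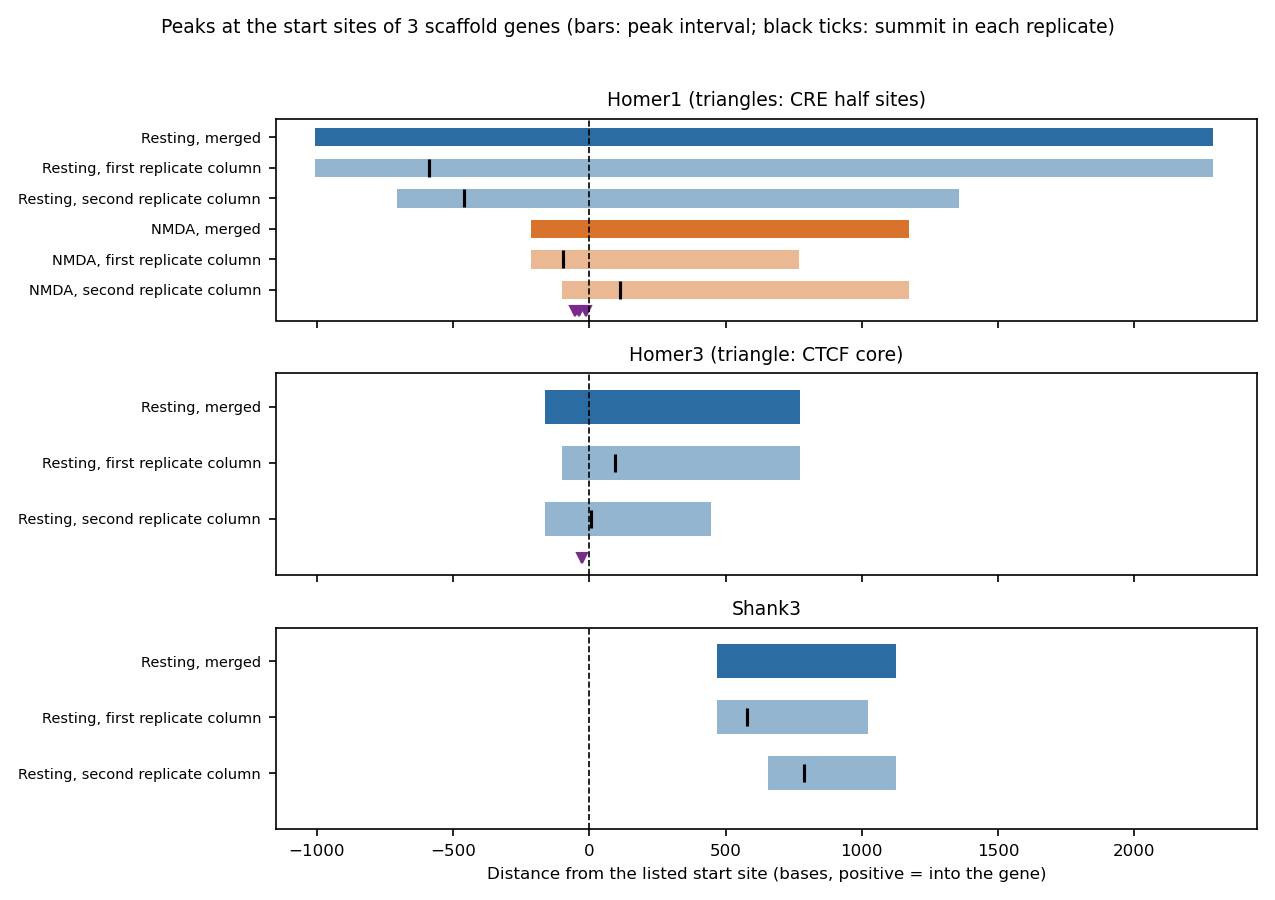
Peaks at the listed start sites of Homer1 and Homer3 and 470 bp past that of Shank3. The x axis is the distance from the start in bases, bars are peak intervals (merged and in each replicate column, blue at rest and orange after NMDA), black ticks are replicate summits and triangles are motif matches. The Homer1 resting summits lie 589 and 458 bases before the start and the NMDA summits within 112 bases of it.

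The 50 kb limit took in a resting peak 45.3 kb from Shank1 (38.7) and one 44.8 kb from Dlg1 (28.5). Just outside it lay a resting peak 55.1 kb from Homer2, with a strength of 28.6. In the NMDA list the Shank1 site was just inside, and the first peak outside was 74.7 kb from Dlg1, with 20.8.

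Other genes of the postsynaptic density were examined as a group of 30 partners, among them the Dlgap proteins that bridge Dlg to Shank, signalling proteins and receptor-binding adaptors. A resting peak lay inside or within 50 kb of 24 of 30, against 62.3% of protein-coding genes, and an NMDA peak of 12 of 30, against 16.9%. A shared resting site lay within 50 kb of 11 of 30 (36.7%), against 12.1%. The partners had a median length of 139 kb, and the shares of protein-coding genes of 50 to 150 kb were 74.7%, 21.0% and 15.5%. The difference between the 30 partners and the 10 scaffold genes was not tested.

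The partners' strongest peaks are given for each list separately, and the peaks of the 2 lists can be different sites. Among partners with peaks in both lists, Iqsec1, which encodes an exchange factor for Arf proteins, had the strongest resting peak within its window, 113, and an NMDA peak of 20.1 at another site 7.93 kb from it. Baiap2, the gene of an actin regulator that binds Shank, had 91.7 at rest and 20.5 in the NMDA list, 47.4 kb apart. Mpp2, a membrane-associated guanylate kinase gene, had 87.0, and its NMDA peak (31.2) lay 49.5 kb outside the gene and 76.3 kb from that site. The glutamate receptor adaptor genes Grip2 and Pick1 had 77.0 and 69.3 at rest, and 25.8 and 21.6 in the NMDA list. The scaffold gene Magi1 had 46.4 and 36.0, and Sipa1l1, which encodes a Rap GTPase activator, 42.2 and 34.1. For Grip2, Pick1, Magi1 and Sipa1l1 the strongest peaks of the lists overlapped, at Grip2 19.7 kb outside the gene. Dlgap1 had 60.2 at rest and 21.4 in the NMDA list at sites 881 kb apart, the NMDA peak 30.4 kb outside the gene. At Iqsec1, Baiap2, Mpp2 and Dlgap1 a weaker resting peak within 50 kb was a shared site. The 8 partners above were named for having the strongest resting peaks among partners with peaks in both lists, so their values are a description. Over all 24 partners with a resting peak the strongest one had a median of 43.1, beside 37.1 for the 9 scaffold genes. The groups are not separate, since the only resting peak of the partner Cttn is the strongest Shank2 peak (123). Of the 5 scaffold and partner genes on chromosome X, 1 had a resting peak within 50 kb, against 15.7% of all protein-coding genes of that chromosome.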

How the data were processed

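SMC1 ChIP and input samples of resting and NMDA-treated neurons (8 samples, 4 groups of 2) were grouped by their titles. Per the submitters' processing notes, reads went through MACS2, BWA, SAMtools, Trimmomatic and FastQC, with the builds GRCm38.p6 and mm10. Versions and settings were not stated there. For each condition the authors deposited 1 list of 20 columns, in the layout of the IDR tool. Its deposited −log10 p values are those of each replicate (columns 15 and 19) and their sum (column 8), and a further deposited score column holds the −log10 IDR, with the replicate intervals and summits beside it. The fold enrichment field holds a placeholder. Depth is unknown. Input values were not used here.

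Peaks were joined to RefSeq gene bodies and start windows of GRCm38.p6 by symbol, with Python 3.11.15, numpy 2.4.6, pandas 2.3.3 and scipy 1.17.1. The gene table gives neither exons nor strand. Peaks sharing 1 bp or more were called shared. The joining steps were tested on simulated data. Merged summit positions were not used, since in many wide peaks they did not lie between the replicate summits. The members, lists, length classes and motifs were chosen with earlier results of these data known. Named genes are all members, any gene nearer to a peak than the member, and at most 8 partners with peaks in both lists, by strongest resting peak. Cttn was named after its values were seen. Alternatives were other distances, a stricter IDR, other overlaps, single replicate columns and, chosen after seeing the data, the nearest gene only.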

Additional observations from a re-analysis of the deposited data

How the results depend on the processing

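The count of scaffold genes with a resting peak fell from 9 to 7 within 10 kb. It was 6 with the gene body, an IDR up to 0.01 or the nearest gene only. The share over all protein-coding genes was 62.3% within 50 kb and 25.4% for the gene body. For the other settings no such share is given, so those counts cannot be set against a background. The number of resting peaks fell from 23 to 15 within 10 kb, 13 in gene bodies, 12 at an IDR up to 0.01 and 13 with the nearest gene only. NMDA peaks and the genes having one or having a shared site went from 2 to 1 within 10 kb, in gene bodies and with the nearest gene only, which left Homer1. At an IDR up to 0.01 both the NMDA peaks and the genes with one went to 0, where 20.8% of all NMDA and 56.9% of all resting peaks pass. Requiring an overlap of 50% of the shorter peak, or allowing a gap of 1 kb, left 2 shared resting peaks. With single replicate columns the median percentile of the 23 resting peaks ranged from 47.0 to 50.2, against 45.1 for the sum. That of the 2 NMDA peaks ranged from 22.8 to 71.6, against 54.6. No paired analysis was possible because the replicate columns carry no replicate numbers and no test was made. Depth is unknown, so a site absent from the NMDA list is not shown to have lost SMC1.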

Other observations

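Across all genes, peaks were few on chromosome X: 114 resting and 5 NMDA peaks, against 12244 and 1678 on the autosomes. An NMDA peak lay within 50 kb of 0.932% of the 966 protein-coding genes of chromosome X and 17.8% of the 20661 autosomal ones.

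The CTCF core AGGGGGCGC was found in 1.25% of the 32851 start windows, in 4.50% of the 3045 that a resting peak overlaps and in 4.84% of the 1158 that an NMDA peak overlaps. TGACG was in 20.8%, 32.1% and 35.8% of the same windows, and TGANTCA in 7.81%, 3.65% and 2.68%. The windows differ in base composition, and these shares were not tested.

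Among marker genes of other cell types, 4 of 4 of the oligodendrocyte lineage list had an NMDA peak within 50 kb, as did 1 of 4 microglial and 0 of 4 astrocyte ones. The count was 0 of 11 for neuronal markers, and 16.9% of all protein-coding genes had such a peak. Genes lying close together can share a peak within 50 kb, so these counts need not be of separate sites. The lists hold few genes, their differences were not tested, and the peaks do not measure expression.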
